A study of Rattus norvegicus with 4 samples.

Results

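Histone genes were followed in neonatal rat ventricular myocytes, primary heart muscle cells taken from the ventricles of newborn rats, cultured for 48 h in TMP195 or in DMSO alone. TMP195 inhibits the class IIa histone deacetylases selectively. Each group had 2 libraries, vehicle (DMSO) in the first and 3 µM TMP195 in the second, and all 4 shared a serum-free DMEM with nutridoma. No strain, litter or culture is named for a library, nor any pooling, so p-values rest only on differences between the libraries of a group. These may be technical variation. Limma, the test used, estimates that spread mostly from all genes together (27.4 prior against 2 residual degrees of freedom). A p-value or interval therefore does not measure a gene's own spread alone. The members were chosen by name: 34 of the 17147 gene names in the table begin with Hist1h, Hist2h, Hist3h, H2af, H3f3 or H1f. Of these, 24 carry a Hist name and are called canonical here, and 10 carry an H2af, H3f3 or H1f name and are called replacement variants. No measured value enters the name rule, but the family was chosen for description with the results of this contrast known, so counts over its members are a description and carry no test.

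Canonical, replication-dependent histones package newly copied DNA. Their genes lie in clusters, are transcribed mainly in S phase, and give mRNAs that end in a stem-loop in place of a poly(A) tail. Replacement variants are made through the whole cell cycle from separate genes with ordinary polyadenylated mRNAs, and they supply histones to cells that have stopped dividing, such as most heart muscle cells soon after birth. The labels name an Ovation RNA-Seq kit, without saying how mRNAs that lack a poly(A) tail were primed, so a canonical level set beside a variant level depends on a step that is not described.

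The promoters of 6 members are printed to show the motifs counted below. The first 3 belong to canonical genes that had some of the largest decreases, and the last 3 to the replacement variants H2afz, H3f3b and H1f0. Each is the stretch of 250 bases before the annotated start, from RefSeq on assembly GRCr8, which served for sequence alone because no build is named for the deposited table. Capitals mark matches on either strand to the CCAAT box (CCAAT), to the TATA box with the letters TATAA, to the octamer ATTTGCAT of H2A and H2B promoters, and to the box AAACACA known from linker histone promoters.
Hist2h3c2: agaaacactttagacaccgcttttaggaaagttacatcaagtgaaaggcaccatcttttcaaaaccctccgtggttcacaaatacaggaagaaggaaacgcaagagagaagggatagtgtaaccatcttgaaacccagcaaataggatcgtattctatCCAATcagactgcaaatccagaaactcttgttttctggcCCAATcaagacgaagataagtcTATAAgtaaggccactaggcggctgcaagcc
Hist1h1b: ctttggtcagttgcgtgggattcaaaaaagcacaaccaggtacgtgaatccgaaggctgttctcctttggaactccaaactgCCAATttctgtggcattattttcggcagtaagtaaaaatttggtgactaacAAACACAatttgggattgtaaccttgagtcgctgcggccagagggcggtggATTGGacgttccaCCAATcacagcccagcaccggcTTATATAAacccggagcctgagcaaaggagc
Hist1h2af: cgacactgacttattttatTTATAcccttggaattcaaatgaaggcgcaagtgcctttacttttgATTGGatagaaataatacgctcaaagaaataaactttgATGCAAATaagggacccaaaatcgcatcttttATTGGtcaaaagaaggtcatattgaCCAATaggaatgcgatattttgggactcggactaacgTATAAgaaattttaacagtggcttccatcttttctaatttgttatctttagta
H2afz: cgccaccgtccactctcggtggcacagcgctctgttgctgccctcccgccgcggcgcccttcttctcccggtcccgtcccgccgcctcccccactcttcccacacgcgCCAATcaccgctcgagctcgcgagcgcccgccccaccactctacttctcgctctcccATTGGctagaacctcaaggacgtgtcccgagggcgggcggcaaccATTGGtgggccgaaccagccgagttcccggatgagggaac
H3f3b: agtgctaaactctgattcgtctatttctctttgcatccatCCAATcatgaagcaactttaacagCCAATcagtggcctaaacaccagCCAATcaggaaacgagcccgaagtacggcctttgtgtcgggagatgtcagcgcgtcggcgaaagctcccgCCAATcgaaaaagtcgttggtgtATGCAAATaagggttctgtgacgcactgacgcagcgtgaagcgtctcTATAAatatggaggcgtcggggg
H1f0: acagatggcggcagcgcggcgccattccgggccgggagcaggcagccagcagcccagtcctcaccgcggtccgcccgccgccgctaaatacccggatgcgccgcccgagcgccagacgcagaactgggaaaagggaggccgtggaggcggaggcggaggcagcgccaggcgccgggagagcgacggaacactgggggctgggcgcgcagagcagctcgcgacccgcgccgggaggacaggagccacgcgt
They lie at chr2:186525912-186526161 (plus strand, Hist2h3c2), chr17:47421625-47421874 (plus strand, Hist1h1b, in RefSeq H1f5), chr17:41807654-41807903 (minus strand, Hist1h2af), chr2:229028845-229029094 (plus strand, H2afz, in RefSeq H2az1), chr10:101757637-101757886 (minus strand, H3f3b) and chr7:112473030-112473279 (plus strand, H1f0).

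All 34 names matched RefSeq, 30 of them a single gene, and 29 of those had a promoter in the table used. Among 20 canonical promoters 19 held TATAA, against 1 of 9 replacement promoters and 24.0% of all 33469 promoters of the same length. The replacement gene with TATAA was H3f3b. CCAAT was present in 18 of 20 canonical and 5 of 9 replacement promoters, against 34.0% of all promoters. The canonical promoters without it were the H4 genes Hist1h4b and Hist1h4m. The octamer ATTTGCAT was present in 8 canonical promoters, 4 of H2A and 4 of H2B genes, and in that of H3f3b, against 1.56% of all promoters. AAACACA was present in 4 canonical promoters, those of the linker genes Hist1h1b and Hist1h1t and the shared window of Hist1h2aa and Hist1h2ba, and in the replacement promoter of H1foo, against 6.08% of all promoters. The promoter of H1f0 held none of the 4 motifs within this window. Some bases were counted under more than 1 gene. Hist3h2a and Hist3h2bb are read in opposite directions from windows of 300 bases (these 250 and the next 50) that share 283, and those of Hist1h2aa and Hist1h2ba share 261. These matches are letters in a window and do not show that a factor binds there.

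The values analysed are estimated fragment counts that the authors scaled per library, called scaled counts below. They summed to 12234396 and 12394180 in the vehicle libraries and to 12506944 and 12561368 in the TMP195 libraries. Across 12689 genes with a mean of 1 or more, the level fitted with limma, log2 values correlated at 0.977 between the vehicle libraries, 0.984 between the TMP195 libraries and 0.974 to 0.975 between treatments. The labelled cell type was checked against its markers. Of 10 cardiomyocyte markers 9 were analysed, and their summed scaled count was 481462 and 488705 with vehicle and 444250 and 449152 with TMP195, with 0 markers absent.

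Canonical histone mRNAs were lower with TMP195. Of 24 genes, 23 passed the filter, and 17 of these were lower, 0 higher and 6 not called at a limma adjusted p under 0.05. Among all genes tested, 10.3% were called lower and 9.93% higher. The median log2 fold change of the 23 genes was -0.93, beside -0.01 over all genes tested. Fold changes are on the log2(scaled count + 1) scale, so those of genes near 0 come out too small. Their summed scaled count was 19390.5 and 18410.4 in the vehicle libraries and 9301 and 10616 in the TMP195 libraries, a ratio of group means of 0.527. Of 10 replacement variants 7 passed the filter, and 4 were lower, 0 higher and 3 not called, with a median of -0.45. Their sum was 10449 and 11066 with vehicle and 8167 and 8517 with TMP195, a ratio of 0.775. The canonical sum divided by the replacement sum was 1.86 and 1.66 in the vehicle libraries and 1.14 and 1.25 in the TMP195 libraries, so the groups did not overlap. The difference between the classes was not tested. With a library left out, fewer genes or none were called. Limma called 0 canonical and 0 replacement genes when vehicle 1, vehicle 2 or TMP195 2 was left out, and 0 of all genes in those fits, and it called 11 canonical and 2 replacement genes lower when TMP195 1 was left out. At an unadjusted p under 0.05 these fits held 14, 14, 18 and 16 lower canonical genes, and 4, 3, 3 and 3 lower replacement genes, in that order. The canonical median lay between -1.29 (TMP195 2 left out) and -0.85, and the replacement median between -0.49 and -0.42.

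**Figure D1:**
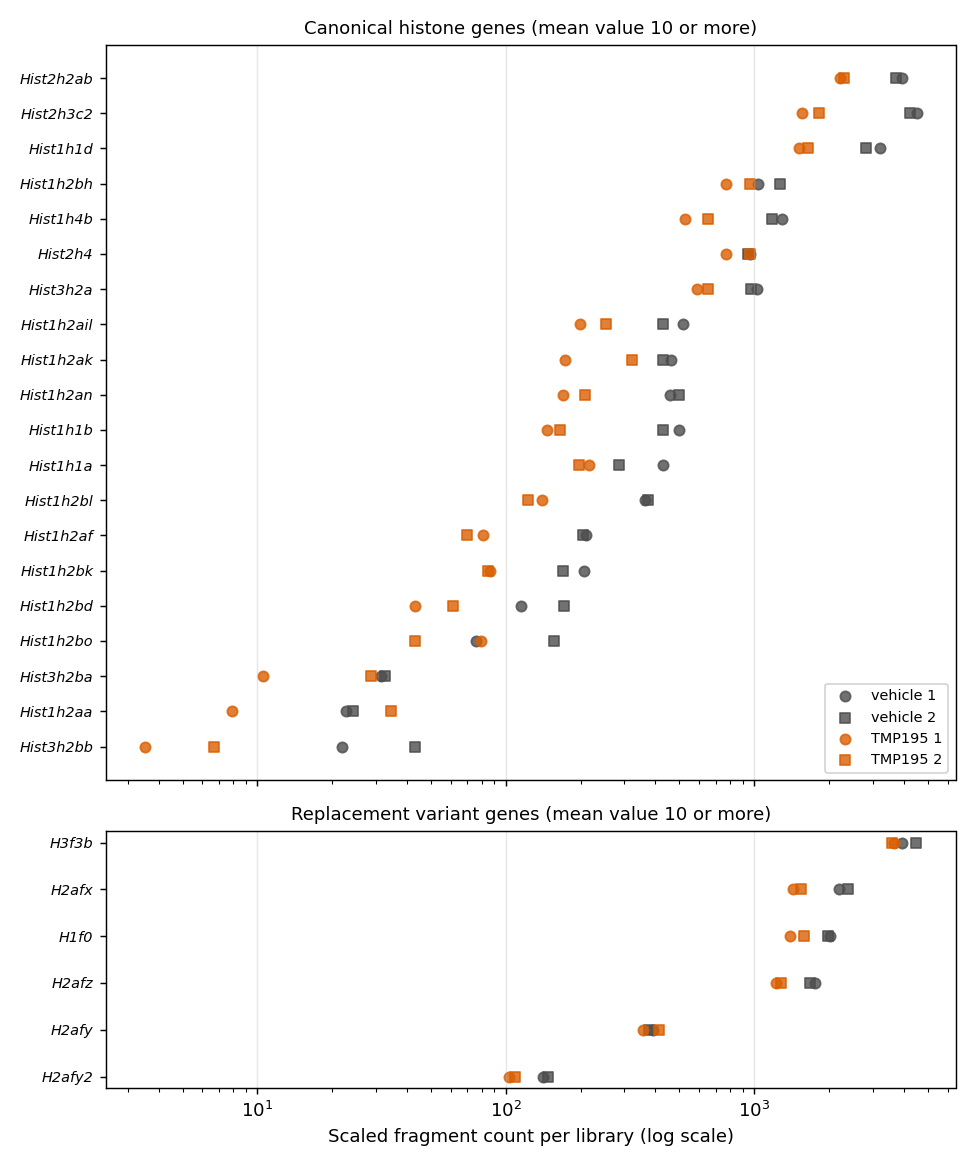
Scaled fragment count of each histone gene with a mean of 10 or more in the 4 libraries, on a log scale; grey points are vehicle, orange points TMP195. Both TMP195 libraries lie below both vehicle libraries for most canonical genes, while those of Hist2h4, Hist1h2bo, Hist1h2aa and H2afy overlap.

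Histone H3, which forms the central tetramer with H4, is represented among canonical genes mainly by Hist2h3c2. Its scaled count was 4517 and 4226 with vehicle and 1560 and 1816 with TMP195. Hist2h3c2 fell to 0.385 times its vehicle level (95% confidence interval 0.344 to 0.431; limma adjusted p = 1.29e-13). It was the highest canonical gene in vehicle, and both TMP195 libraries lay far below both vehicle libraries. The replacement H3 gene measured here is H3f3b, the only member with an H3f3 name. It encodes H3.3, the form laid down outside S phase. Its scaled count was 3948 and 4487 with vehicle and 3660 and 3586 with TMP195. H3f3b fell to 0.861 times its vehicle level (95% confidence interval 0.775 to 0.956; limma adjusted p = 0.0371), a call lost with a pseudocount of 0.1 (adjusted p = 0.0584) and without the filter on low values (adjusted p = 0.0907). On the log2 scale H3f3b changed by -0.22, by -0.12 with vehicle 2 left out and by -0.31 with vehicle 1 left out. Divided by H3f3b, Hist2h3c2 stood at 1.14 and 0.942 in the vehicle libraries and at 0.426 and 0.506 in the TMP195 libraries. Ratios to H3f3b need not cover all H3.3 mRNA. Hist3h3, known in human as a testis H3 gene, had scaled counts of 0.95 and 0 with vehicle and 0 and 3.84 with TMP195, at or near the level of single fragments.

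Linker histones bind the DNA between nucleosomes. The canonical linker gene with the highest values was Hist1h1d, at 3204 and 2827 with vehicle and 1521 and 1645 with TMP195. Hist1h1d fell to 0.526 times its vehicle level (95% confidence interval 0.469 to 0.589; limma adjusted p = 5.43e-10). Its name matches 2 RefSeq entries, H1f4 and a gene with the symbol H4f3, so which of them the value stands for is not certain. Hist1h1b was lower by more, at 497 and 429 against 147 and 166, or 0.340 times vehicle (95% confidence interval 0.275 to 0.419; limma adjusted p = 3.21e-09). Hist1h1a, at 430 and 284 against 215 and 198, fell to 0.591 times vehicle, and its vehicle libraries differed more from each other than those of most members. Its log2 fold change of -0.76 became -0.46 with vehicle 1 left out and -1.06 with vehicle 2 left out. Hist1h1t, the testis linker histone, was at 0 and 2.11 with vehicle and 0 and 0.96 with TMP195 and did not pass the filter. Among the replacement linkers, H1f0, known for its rise in cells that leave the cell cycle, was at 2018 and 1983 with vehicle and 1393 and 1590 with TMP195. H1f0 fell to 0.744 times its vehicle level (95% confidence interval 0.662 to 0.837; limma adjusted p = 0.000291). H1fnt, a spermatid linker, was at 1.90 and 2.11 with vehicle and listed at 0 in both TMP195 libraries, too low for a fold, and was not called. H1foo, the oocyte linker, was listed at 0 in all 4 libraries.

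The H2A genes gave the largest canonical sum, 6622 and 6292 with vehicle against 3425 and 3848 with TMP195, and 6 of 7 were lower. Hist2h2ab held most of it, at 3924 and 3738 with vehicle and 2206 and 2306 with TMP195. Hist2h2ab fell to 0.589 times its vehicle level (95% confidence interval 0.531 to 0.654; limma adjusted p = 4.37e-09). Hist3h2a, at 1025 and 970.0 against 588 and 654, fell to 0.622 times vehicle (limma adjusted p = 4.34e-06). In the Hist1 cluster, Hist1h2af (211 and 205 against 80.8 and 70.0) and Hist1h2an (459 and 498 against 170 and 209) had the largest decreases of this type, to 0.365 and 0.395 times vehicle. Hist1h2ail fell to 0.477 times vehicle, but RefSeq gives "H3 histone" among its other names. It was counted with the H2A genes by its name alone, so their count and sum may include an H3 gene. Hist1h2ak, at 463 and 428 against 173 and 322, fell to 0.532 times vehicle. Its TMP195 libraries lay far apart, so that -0.91 on the log2 scale became -0.46 with TMP195 1 left out and -1.36 with TMP195 2 left out. Hist1h2aa, the testis H2A, was at 22.8 and 24.2 with vehicle and 7.91 and 34.5 with TMP195, the groups overlapped, and it was not called (limma adjusted p = 0.607).

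Replacement H2A variants have distinct roles. H2afx encodes H2A.X, which is phosphorylated beside DNA breaks and is known to be made from both stem-loop and polyadenylated mRNAs. It was at 2199 and 2391 with vehicle and 1429 and 1539 with TMP195, and of the replacement genes with a mean of 100 or more it had the largest decrease, to 0.647 times vehicle (95% confidence interval 0.577 to 0.726; limma adjusted p = 7.12e-07). RefSeq lists the name H2afx for both H2ax and the non-histone gene Dpagt1, so which of them the value stands for rests on the table's name. H2afz, which encodes the H2A.Z of promoter nucleosomes, was at 1750.4 and 1678 with vehicle and 1224 and 1278 with TMP195. H2afz fell to 0.730 times vehicle (95% confidence interval 0.650 to 0.821; limma adjusted p = 0.000126). The macroH2A genes, whose proteins carry a large extra domain and are known for silent chromatin, were not called. H2afy was at 390 and 377 with vehicle and 358 and 414 with TMP195, with a log2 fold change of 0.01 (SE 0.13) that took the opposite sign, -0.02, with scaling by library total. H2afy2 was at 141 and 148 with vehicle and 103 and 108 with TMP195. The groups of H2afy2 did not overlap, but its log2 fold change of -0.45 (SE 0.21) did not pass (limma adjusted p = 0.126). H2afj and H2afb3 were listed at 0 in all 4 libraries.

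Of 8 H2B genes, which pair with H2A in the nucleosome, 6 were lower. Hist1h2bh was the highest, at 1036 and 1268 with vehicle and 769 and 966 with TMP195, and fell by less than most, to 0.752 times vehicle (limma adjusted p = 0.00507). That call was lost without the filter on low values (adjusted p = 0.0605), and -0.41 on the log2 scale became -0.27 with vehicle 2 left out and -0.25 with TMP195 1 left out. Hist1h2bl was at 363 and 375 with vehicle and 140 and 123 with TMP195, which is 0.357 times vehicle (95% confidence interval 0.285 to 0.447; limma adjusted p = 2.72e-08). The names Hist1h2bh and Hist1h2bl each match more than a single RefSeq gene. Hist1h2bd (115 and 172 against 43.1 and 61.4) and Hist1h2bk (206 and 171 against 86.1 and 84.4) fell to 0.371 and 0.458 times vehicle. In human cells, genes of these names are known to give polyadenylated transcripts after division stops. Of 6 canonical genes listed for that property these 2 were analysed, and their log2 fold changes of -1.43 and -1.13 lay within the range of the other canonical genes. Of the members with a mean of 10 or more, Hist3h2bb had the largest decrease, at 21.8 and 43.2 against 3.52 and 6.71, with a wide interval of 0.0830 to 0.416 times vehicle (limma adjusted p = 0.00211). Hist1h2bo, at 75.9 and 156 against 79.1 and 43.2, was called (limma adjusted p = 0.0385) although its groups overlapped, and the call was lost with a pseudocount of 0.1 (adjusted p = 0.0905) and without the filter (adjusted p = 0.176). On the log2 scale its -0.88 became -0.37 with vehicle 2 left out and -0.46 with TMP195 2 left out. Hist3h2ba, at 31.3 and 32.6 against 10.5 and 28.8, and the testis gene Hist1h2ba, at 1.90 and 5.27 against 3.52 and 1.92, were not called.

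Histone H4 genes encode the partner of H3, and 1 of the 3 tested was lower. Hist1h4b was at 1290 and 1181 with vehicle and 527 and 652 with TMP195. Hist1h4b fell to 0.476 times vehicle (95% confidence interval 0.411 to 0.550; limma adjusted p = 4.18e-09). Hist2h4 was at 962 and 945 with vehicle and 772 and 959 with TMP195. The TMP195 2 library lay within the vehicle range, and the log2 fold change of Hist2h4 of -0.15 (SE 0.10; limma adjusted p = 0.336) became 0.01 with TMP195 1 left out and -0.31 with TMP195 2 left out. It was the single canonical gene with a mean of 100 or more, of 15, that was not called lower. Hist1h4m, at 15.2 and 3.16 against 0 and 13.4, was not called. H4 genes encode the same or nearly the same protein, as do many genes within the canonical H2A, H2B and H3 types. No source says how fragments that match several such genes were divided. The value of a single canonical gene may therefore be less certain than the sum of its type.

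**Figure D2:**
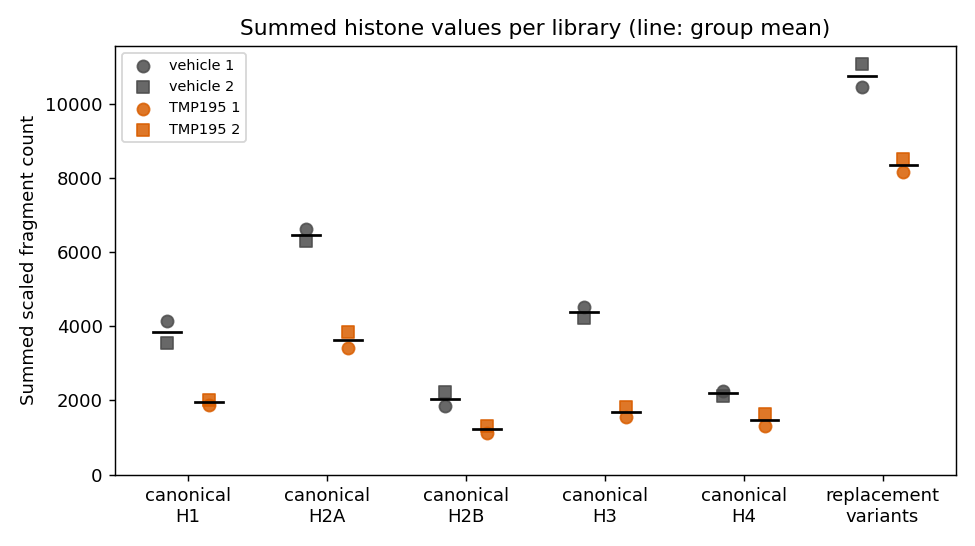
Summed scaled count per library of the canonical genes of each histone type and of the replacement variants, with the group mean as a line. The TMP195 sums lie below the vehicle sums in every type drawn, with a ratio of group means of 0.386 for H3, 0.507 for H1, 0.563 for H2A, 0.601 for H2B and 0.665 for H4. The H3 sum is nearly all Hist2h3c2, and of the H4 genes only Hist1h4b was called lower.

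Every canonical type was lower as a sum. Nearly all of the H3 sum was Hist2h3c2, and of the H4 genes Hist1h4b was called lower while Hist2h4 was not called. The H3 sum went from 4518 and 4226 to 1560 and 1819, and the H1 sum from 4131 and 3542 to 1883 and 2009. The H2B sum was 1851 and 2222 with vehicle and 1135 and 1315 with TMP195, and the H4 sum 2267 and 2128 against 1299 and 1625. In none of the 5 types did the vehicle and TMP195 sums overlap. By locus, 13 of 16 genes tested of the Hist1 cluster were lower with a median log2 fold change of -1.07, 2 of 3 of the Hist2 cluster with -0.76, and 2 of 4 of the Hist3 cluster with -0.76. The 3 highest canonical genes, Hist2h2ab, Hist2h3c2 and Hist1h1d, made up 60.1% and 58.6% of the canonical sum with vehicle and 56.8% and 54.3% with TMP195. Of 23 canonical genes tested, 17 had both TMP195 libraries below both vehicle libraries, as did 6 of 7 replacement variants and 28.7% of all genes tested. Of the canonical genes, 10 were both called and at 0.5 times vehicle or less, and 0 replacement variants were, while 1.86% of all genes tested were.

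**Figure D3:**
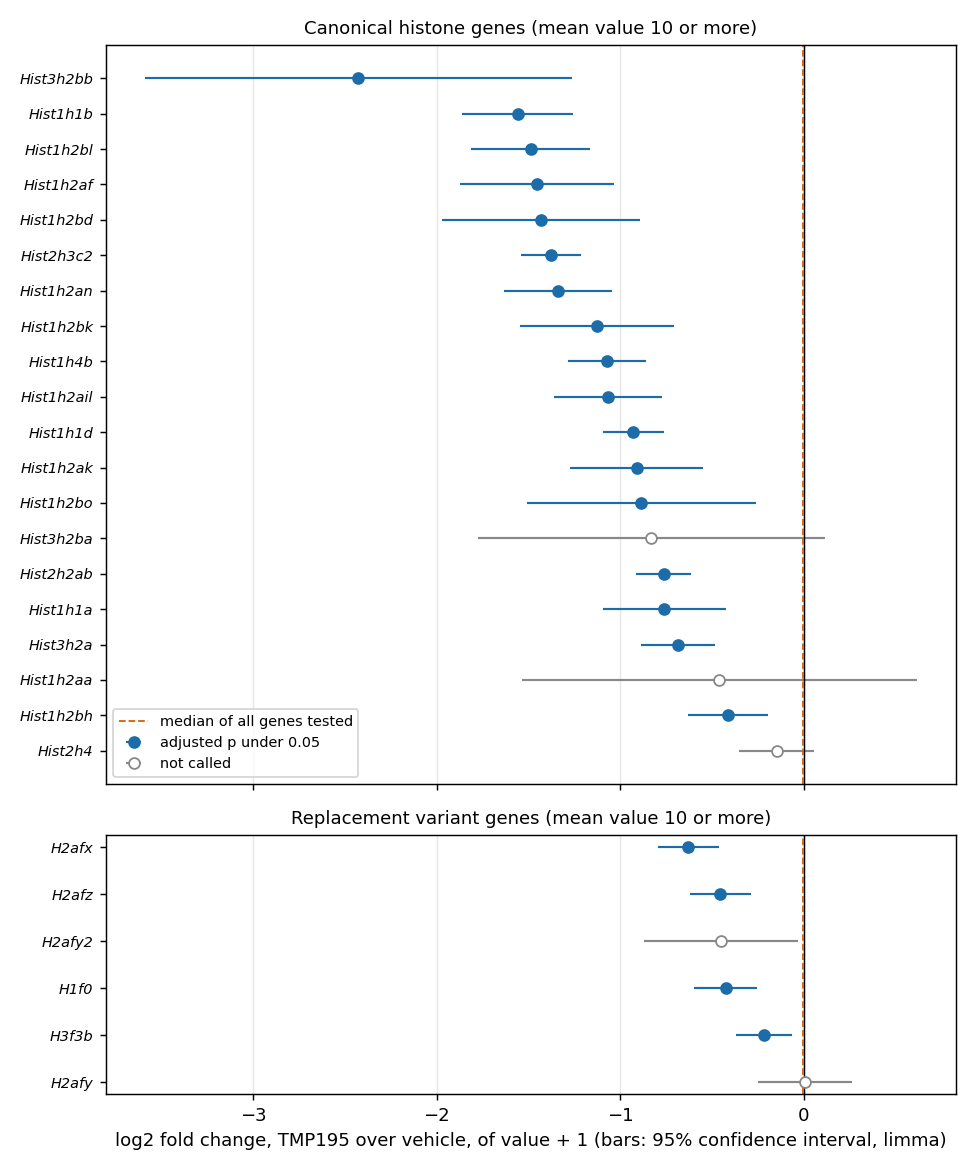
Log2 fold change of each histone gene with a mean of 10 or more, TMP195 over vehicle, with its 95% confidence interval from limma; filled points passed the test and the dashed line is the median of all genes. The canonical genes reach from -2.43 (Hist3h2bb) to -0.15 (Hist2h4) and the replacement variants from -0.63 (H2afx) to 0.01 (H2afy).

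Levels per length were taken from the authors' deposited FPKM values, held for 28 of the members. The 2 highest in vehicle with more than a few fragments were Hist2h3c2, with 1551 and 1452 FPKM, and Hist2h2ab, with 1475 and 1405. H3f3b stood at 194 and 219.9 FPKM and H2afz at 208 and 199. Per length, the ratio of Hist2h3c2 to H3f3b was 8.02 and 6.60 with vehicle and 2.99 and 3.55 with TMP195. The ratio of Hist2h2ab to H2afz was 7.09 and 7.05 with vehicle and 5.70 and 5.71 with TMP195. These ratios rest on the lengths the authors divided by. Scaled count and FPKM together imply 236 bases for Hist2h3c2, 216 for Hist2h2ab, 1660 for H3f3b and 683 for H2afz. Hist1h2ail has the 236 bases of Hist2h3c2, while Hist1h2af and Hist1h2ak have 216 and Hist1h2an 298. Lengths of other canonical genes differ widely, with 1250 for Hist1h4b, 1540 for Hist3h2a and 851 for Hist1h2bh, but 219 for Hist2h4. Such implied lengths need not be transcript lengths. A length set too short raises FPKM, so the ratios between classes are uncertain. For Hist1h4m scaled count and FPKM imply 0.982 bases, and its FPKM of 1255 and 261 from 15.2 and 3.16 scaled counts cannot be read as a level.

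In the authors' deposited table, 10 of the 28 members with FPKM stood on the sheet of 623 lower genes, 7 canonical and 3 replacement, beside 5.84% of all 10673 genes with FPKM. That table gave Hist2h3c2 a ratio of mean FPKM of 0.386 and a p-value of 0.00551, and H2afz a ratio of 0.730 and a p-value of 0.0122. Of the 17 canonical genes limma called lower, 10 had a p-value of 0.05 or more in the authors' deposited table, from 0.0542 (Hist1h1b) to 0.382 (Hist1h2bo). Hist1h1d, with 0.0607, was among them. Of the 4 replacement variants limma called, H3f3b (0.266) and H1f0 (0.113) were above 0.05 in the authors' deposited table, and H2afy2, which limma did not call, was below it (0.0159). The authors' p-values are unadjusted, while limma's calls use the adjusted p. Before adjustment limma gave H2afy2 a p-value of 0.0355. Both sources use the same libraries and the same contrast.

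Of 24 listed genes that drive histone transcription or trim histone mRNA, 19 were analysed, with 2 lower, 1 higher and 16 not called, and a median log2 fold change of -0.04. These counts lie near or below the 10.3% lower and 9.93% higher of all genes tested, and the genes named next are single calls. Casp8ap2, which joins NPAT at histone gene clusters, fell from 863 and 781 to 625 and 574 (log2 fold change -0.46, SE 0.10; limma adjusted p = 0.00139). Cdk2, the kinase that activates NPAT, fell by 0.52 on the log2 scale (limma adjusted p = 0.00252). Yy1, a transcription factor, rose by 0.29 (limma adjusted p = 0.0237). Slbp, whose protein binds the stem-loop, was at 389 and 311 with vehicle and 307 and 289 with TMP195 and was not called (limma adjusted p = 0.290). Npat (0.02), Lsm10 (-0.04), Lsm11 (0.01) and Ccne2 (-0.43) were not called. With a library left out, limma called 0 of these genes lower and 0 higher in each fit, and 2 to 3 were lower and 0 to 1 higher at an unadjusted p under 0.05.

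Of 30 listed chaperones and remodellers, which carry histones to DNA or move them on it, 27 were analysed, with 5 lower, 3 higher and 19 not called, and a median of -0.05. Over all genes tested 10.3% were lower and 9.93% higher. The lower genes included Asf1b (-1.09, limma adjusted p = 0.00167), an H3 and H4 chaperone, the CAF-1 subunit gene Chaf1b (-0.72, limma adjusted p = 0.0310) and Mcm2 (-0.72), a helicase subunit that also binds H3 and H4. Others that act on histones at the replication fork were not called: the CAF-1 subunit gene Rbbp4 (-0.09), Tonsl (-0.78, limma adjusted p = 0.0545) and the FACT genes Supt16h (-0.07) and Ssrp1 (-0.03). Asf1b went from 157 and 164 to 53.6 and 105. Hjurp, which loads the centromeric H3 variant, fell from 305 and 268 to 168 and 188, and Dek fell by 0.35 on the log2 scale. Npm1 (0.35, limma adjusted p = 0.000228), Ino80 (0.31) and Set (0.29) rose. With a library left out, 0 to 1 were called lower and 0 to 1 higher (3 to 7 lower and 2 to 3 higher at an unadjusted p under 0.05). The H3.3 chaperone genes Hira (0.08) and Daxx (0.24) and the Asf1b paralogue Asf1a (-0.03) were not called.

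**Figure D4:**
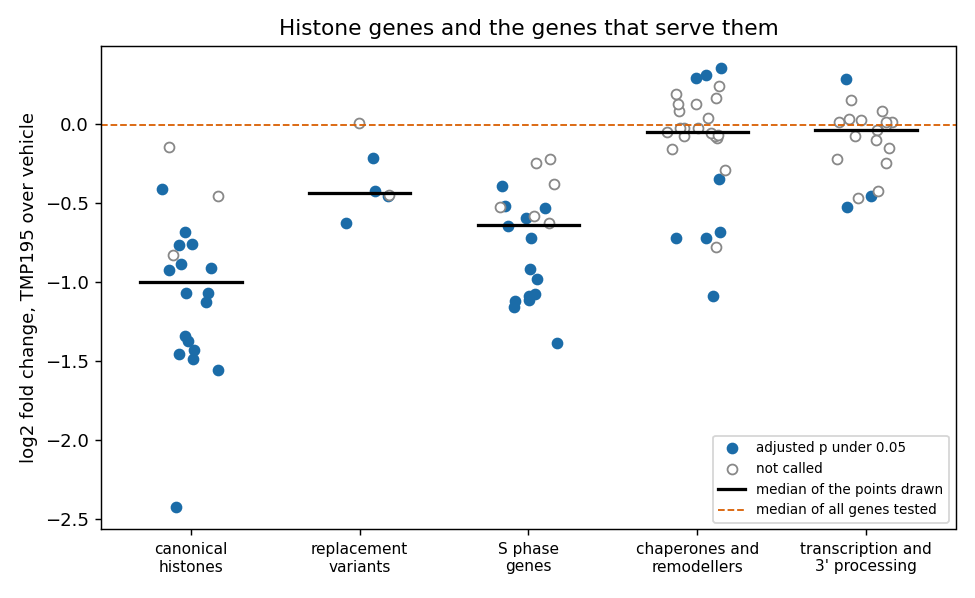
Log2 fold change of each gene tested in 5 groups (histone genes with a mean of 10 or more), with the median of the points drawn as a line and the median of all genes dashed. The medians lie at -1.0 for canonical histones, -0.44 for replacement variants, -0.64 for S phase genes, -0.05 for chaperones and remodellers and -0.04 for transcription and processing genes.

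Other genes of S phase fell as well. Of 20 listed, which share Mcm2 with the chaperone list, 14 were lower, 0 higher and 6 not called, with a median log2 fold change of -0.64. The shares over all genes tested were 10.3% lower and 9.93% higher. Rrm2, the ribonucleotide reductase subunit that limits DNA precursors, fell from 929 and 978 to 457 and 445 (limma adjusted p = 3.00e-09). Mcm5 (-1.39), Mcm3 (-1.12) and Ccna2 (-1.12) fell, and Pcna (-0.25), the sliding clamp, was not called. The count of 14 became 0 with vehicle 1, vehicle 2 or TMP195 2 left out (13, 15 and 16 lower at an unadjusted p under 0.05) and 10 with TMP195 1 left out. Markers listed for cell types other than cardiomyocytes were also lower in part. Of 10 fibroblast markers 6 were lower (median -0.46), with a summed scaled count of 97816 and 94381 with vehicle and 69725 and 72629 with TMP195. Of 8 smooth muscle and pericyte markers 4 were lower (20524 and 20478 against 15489 and 16071), of 8 endothelial markers 2 (653 and 716 against 381 and 379) and of 4 epicardial markers 1 (654 and 641 against 476 and 473). Of 8 macrophage and leukocyte markers 1 was higher, and of 9 cardiomyocyte markers 2 were lower and 1 higher (median -0.07). Apart from the fibroblast and smooth muscle lists, these are few calls in short lists, too few to set against the shares over all genes. No marker analysed was at 0 in every library, and the part of these cells in the histone result was not tested. In bulk RNA, fewer dividing cells and less histone mRNA per cell cannot be told apart.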

How the data were processed

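Total RNA of the 4 samples was made into libraries with a kit of the Ovation series, per the labels. Per the submitters' processing notes Cufflinks was used; no source used here gives its version, the aligner, the genome build or the annotation. The deposited main table is a signal: the authors' estimated fragment counts scaled by library, read from the values. A second deposited table holds the authors' FPKM values for 10673 genes and their unadjusted p-value, and a sheet of lower genes adds the authors' ratio of mean FPKM. FPKM and scaled counts kept a constant ratio within 0.01 on the log2 scale in 97.9% of 10427 genes, so FPKM was not tested again.

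Limma 3.58.1 (R 4.3.3, trend across genes) was fitted on log2(value + 1) over all 12689 genes with a mean of 1 or more, with treatment as the only term, Benjamini-Hochberg adjustment over all of them and a threshold of 0.05. Degrees of freedom were 2 residual and 27.4 prior. Named genes are every replacement variant tested, every canonical gene called, the 6 highest canonical genes and up to 4 genes of smallest p per pathway list. Other members were named after their values were seen, to account for all 34, and so were further list genes. The members, lists and tests were chosen with earlier results of these data known. Equal replicate values were looked for, and 0% of genes above 0 in both replicates of a group had them. Promoter windows came from RefSeq (GRCr8), which was also used for names. The scaled counts are estimates, and some are not whole multiples of a common step per library. The fragments behind a value may therefore be known only approximately. Intervals cover the spread between libraries as limma estimates it.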

Additional observations from a re-analysis of the deposited data

How the results depend on the processing

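The canonical count of 17 lower genes was 15 to 17, and the replacement count of 4 was 3 or 4, with a pseudocount of 0.1, without the filter, with a mean of 10 or more, with scaling by library total and with a replicate block. The chaperone count (5 lower) was 4 to 6 and the S phase count (14 lower) 14 to 16 under the same settings, while the processing list lost its single higher gene, Yy1, without the filter (0 higher). The log2 fold change of H2afy took the opposite sign with scaling by library total (-0.019) and lay between -0.10 and 0.11 with a library left out, and that of Hist2h4 between -0.305 and 0.008. Leaving out each library gave 0 to 11 lower canonical genes, 0 to 2 lower replacement variants, 0 lower and 0 higher processing genes, 0 to 1 lower and 0 to 1 higher chaperone genes, and 0 to 10 lower S phase genes, with limma losing a residual degree of freedom in each, and a canonical median of -1.29 to -0.85. Whether vehicle and TMP195 libraries of the same replicate number were paired is not stated. Their deviations correlated at 0.00472 across genes, which cannot exclude a pairing. The block gave 17 and 4 lower histone genes and 1266 lower and 1193 higher of all genes. A count model on recovered fragments was planned and not run, because some deposited values were not whole multiples of a common step per library. Histone genes with a mean under 10 rest on a few fragments, too few for a stable fold.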

Other observations

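Other histone genes lie outside the name rule, and 2 were looked up after the other values were known. Cenpa, which encodes the centromeric H3 variant that HJURP loads, was at 73.0 and 65.3 with vehicle and 60.6 and 86.3 with TMP195, a difference of 0.07 on the log2 scale (SE 0.27) that was not called (limma adjusted p = 0.908). Its groups overlapped, while the gene of its loader, Hjurp, was lower. Hils1, a spermatid linker histone, was at 9.48 and 12.6 with vehicle and 7.91 and 22.1 with TMP195 and was not called (limma adjusted p = 0.813).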
